A study of Mus musculus with 4 samples.

Results

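Chromatin remodelling complexes use a SNF2-family ATPase to slide, evict or exchange nucleosomes, and cohesin with the insulator protein CTCF folds the genome into loops. Open chromatin was examined at 43 genes that encode their subunits in haematopoietic stem cells (HSCs) of mouse bone marrow. The genes were taken by name, not by their values, though earlier results of these data were known at that time. They were 16 of SWI/SNF, 10 of the CHD family and NuRD, 4 of ISWI, 5 of the INO80, SRCAP and TIP60 complexes and 8 of cohesin and CTCF, out of 21887 protein-coding genes of the mm10 RefSeq table. All 43 matched a symbol in that table.

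ATAC-seq maps open chromatin by where the Tn5 transposase inserts into DNA. There were 2 libraries of CD93-positive HSCs and 2 of CD93-negative HSCs. All came from wild type C57BL/6 male mice aged 8 weeks and were sorted as LSK cells, the progenitor-rich marrow fraction, lacking CD34, CD48 and Flt3 and carrying Slam1. Bones were pooled, and nothing says that a group's 2 libraries are of different mice. Their spread may be technical, and p-values measure only the spread between these samples. Each deposited file was a list of peak summits, 1-bp positions with a score. List lengths were 21 and 711 summits for CD93-positive replicates 1 and 2, against 7989 and 2755 for the CD93-negative pair. Read depth is unknown, so list length is the only measure of yield, and a gene that is not listed is not shown to be closed.

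The lists carried few defining genes of the sorted cell. Of 20 HSC genes, among them Kit, Ly6a, Slamf1, Procr and Mecom, none had a summit within 1000 bp of a gene end in either CD93-positive library, against 2 (Tal1 and Lyl1) in CD93-negative replicate 1 and none in replicate 2. No gene end of 10 endothelial and stromal, 7 B-lineage and 5 T and NK genes was listed in any library. Of 10 myeloid genes, none was listed in the CD93-positive libraries, against 4 (S100a8, S100a9, Ngp and Camp) in CD93-negative replicate 1 and 1 (S100a8) in replicate 2. Of 7 erythroid genes, Tfrc was the 1 listed in CD93-positive replicate 2, and it was listed in both CD93-negative libraries. In the gene body with 10000 bp either side, CD93-positive replicate 1 listed none of these genes and CD93-positive replicate 2 Tfrc alone. In that window CD93-negative replicate 1 listed 5 of the 20 HSC, 3 of 7 B-lineage, 4 of 10 myeloid, 3 of 7 erythroid and 1 of 5 T and NK genes, and CD93-negative replicate 2 listed 1 myeloid and 2 erythroid genes. No library listed an endothelial or stromal gene in either window. Over all protein-coding genes, gene-end shares were 0.0183% and 3.22% in the CD93-positive libraries, against 32.2% and 12.9% in the CD93-negative ones (replicate 1 first). In the wider window they were 0.0411% and 4.62%, against 43.5% and 18.5%. The marker counts cover few genes and do not show which cells were present. The part of any other cells in the results below was not tested.

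As background, SWI/SNF complexes open promoters and enhancers and come in forms marked by ARID1, by PBRM1 with ARID2 and BRD7, or by BRD9. NuRD couples a CHD ATPase to histone deacetylases, ISWI complexes space nucleosomes, and INO80, SRCAP and TIP60 act on the histone variant H2A.Z. Cohesin is loaded by NIPBL, released by WAPL with PDS5 proteins, and halted on DNA by CTCF. Several of these genes are known to be needed for blood stem cell maintenance.

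Remodeller and cohesin genes had a gene-end summit, within 1000 bp of either end of the gene, in none of the 43 cases in CD93-positive replicate 1 and in 8 of 43 in CD93-positive replicate 2. They had one in 28 of 43 in CD93-negative replicate 1 and 17 of 43 in CD93-negative replicate 2. As shares this was 0% and 18.6% (exact Clopper-Pearson 95% interval 8.39 to 33.4) in the CD93-positive libraries, and 65.1% (49.1 to 79.0) and 39.5% (25.0 to 55.6) in the CD93-negative ones. For the 0 of replicate 1 the upper limit was 8.22%. The intervals treat genes as independent and cover counting error only. Of all protein-coding genes, 0.0183% and 3.22% were listed in the CD93-positive libraries (replicate 1 first), against 32.2% and 12.9% in the CD93-negative ones. Both CD93-positive shares lay below both CD93-negative shares, as did those of all genes.

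The mean share was 9.3% ± 13.2 in CD93-positive and 52.3% ± 18.1 in CD93-negative HSCs (SD, n = 2 each), a difference of -43.0 percentage points. A two-sided exact permutation test over libraries gave p = 0.333. No smaller p is possible with 2 against 2, so the difference could not pass a test here. With no list longer than 711 summits it was -2.33 points (exact permutation p = 1.0), but CD93-positive replicate 1 has only 21 summits and enters that mean with 0%. Among the 3 libraries with 711 summits the direction was the opposite, at 6.98 points (exact permutation p = 0.667, 1 library against 2). CD93-positive replicate 2 then listed 8 of the 43 genes, against 4 in CD93-negative replicate 1 (9.3%, 2.59 to 22.1) and 6 in CD93-negative replicate 2 (14.0%, 5.3 to 27.9), and all of these intervals overlapped. All protein-coding genes reached 3.28% and 3.38% in these shortened CD93-negative lists. In a bulk library, fewer cells with an open site and less opening per cell cannot be told apart.

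**Figure D1:**
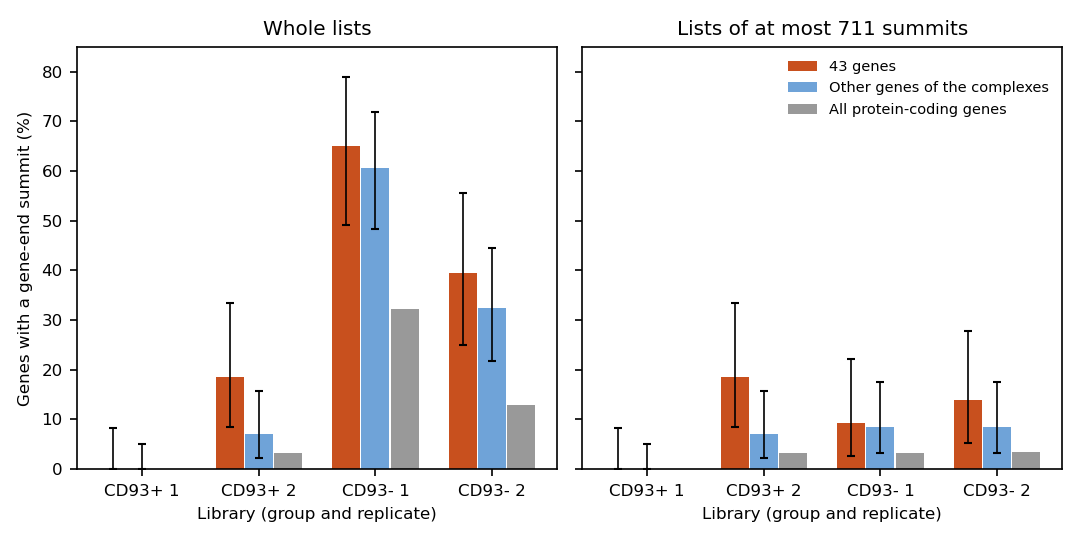
Bars show the share of genes (%) that had a gene-end summit in each library, with exact 95% intervals, for the 43 genes, 71 other genes of the complexes and all protein-coding genes (no interval), from whole lists (left) and lists of at most 711 summits (right). With whole lists the 43 genes reached 18.6% in CD93-positive replicate 2 against 65.1% and 39.5% in the CD93-negative libraries, and with lists of equal length 18.6% against 9.3% and 14.0%.

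The 4 genes among the 711 strongest summits of CD93-negative replicate 1 were Ep400, Pds5b, Actl6a and Mbd3, and all 4 were also listed in CD93-positive replicate 2. The 6 of CD93-negative replicate 2 were Ep400, Smarca5, Smc3, Pds5b, Baz1b and Smarcc1, of which Ep400, Smarca5 and Pds5b were listed in CD93-positive replicate 2. Shared genes thus made up 50.0% and 37.5% of the 8 genes of CD93-positive replicate 2, and all and 50.0% of the genes of the shortened CD93-negative lists. Over all genes, CD93-positive replicate 2 shared 364 of its 704 genes with the shortened list of CD93-negative replicate 1 and 336 with that of replicate 2. These shortened lists held 717 and 739 genes, so the shared genes were 364 of 717 and 336 of 739.

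The 8 genes listed in CD93-positive replicate 2 came from all 5 families. They were Ep400, Pds5b, Actl6a, Ctcf, Chd1, Smarca5, Mbd3 and Arid2. All 8 were listed in CD93-negative replicate 1, and 6 of them, without Chd1 and Arid2, in CD93-negative replicate 2 as well. Over all genes, 99.6% of the 704 genes of CD93-positive replicate 2 were listed in CD93-negative replicate 1 and 86.4% in replicate 2, beside all and 75.0% of the 8. The scores below are the authors' and were not scaled between libraries, so they are read by rank within a list. Ranks, and ranks as a percentage of a list, come from lists of unequal length and show no change between libraries. CD93-positive replicate 1 is left out of the sentences that follow because it listed none of these genes.

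Ep400 encodes the ATPase of the TIP60 complex, which exchanges histone H2A.Z, and its gene lies on chromosome 5 from 110664373 to 110770927. Its summit scored 16.3 in CD93-positive replicate 2 (rank 62 of 711), against 104 in CD93-negative replicate 1 (rank 52 of 7989) and 26.6 in CD93-negative replicate 2 (rank 46 of 2755). It was the highest-scoring gene-end summit of the 43 genes in each of the 3 libraries. Pds5b encodes a cohesin partner that acts with WAPL in release, and its gene lies on chromosome 5 from 150673713 to 150810669. Its summit scored 9.70 in CD93-positive replicate 2 (rank 263), against 85.4 (rank 134) and 19.0 (rank 222) in CD93-negative replicates 1 and 2. It stood at 37.0% of the CD93-positive list and, in the CD93-negative lists, at 1.68% and 8.06%.

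Actl6a encodes an actin-related subunit that SWI/SNF shares with the INO80 and TIP60 complexes (chromosome 3, 32708546 to 32726973). It scored 9.33 in CD93-positive replicate 2, against 67.2 and 12.5 in CD93-negative replicates 1 and 2. Ctcf, the insulator gene (chromosome 8, 105636474 to 105682922), scored 7.25 in CD93-positive replicate 2, against 39.5 and 6.24 in CD93-negative replicates 1 and 2. Its rank was 441 of 711 in CD93-positive replicate 2, and 1633 of 7989 and 2279 of 2755 in CD93-negative replicates 1 and 2. Smarca5 encodes the ISWI ATPase SNF2H (chromosome 8, 80699943 to 80739459). It scored 6.29 in CD93-positive replicate 2, against 46.4 and 23.2 in CD93-negative replicates 1 and 2. Its rank was 505 of 711 in CD93-positive replicate 2, and 1156 of 7989 and 89 of 2755 in CD93-negative replicates 1 and 2.

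Mbd3 encodes the methyl-CpG-binding-domain subunit of NuRD (chromosome 10, 80392539 to 80399531). It scored 5.10 in CD93-positive replicate 2 (rank 613), against 74.9 in CD93-negative replicate 1 (rank 245) and 9.39 in replicate 2 (rank 1465). Chd1, a remodeller that binds methylated histone H3 lysine 4 (chromosome 17, 15704967 to 15772612), scored 6.37 in CD93-positive replicate 2 and 31.6 in CD93-negative replicate 1, and was not listed in CD93-negative replicate 2. Arid2, the gene of the DNA-binding subunit of the PBRM1 form of SWI/SNF (chromosome 15, 96287522 to 96405463), scored 4.26 in CD93-positive replicate 2 and 13.8 in CD93-negative replicate 1, the lowest of the 8 genes in both. Its summits lay 839 and 699 bp outside the gene and also within 1000 bp of Gm38469, so they cannot be given to Arid2 alone.

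**Figure D2:**
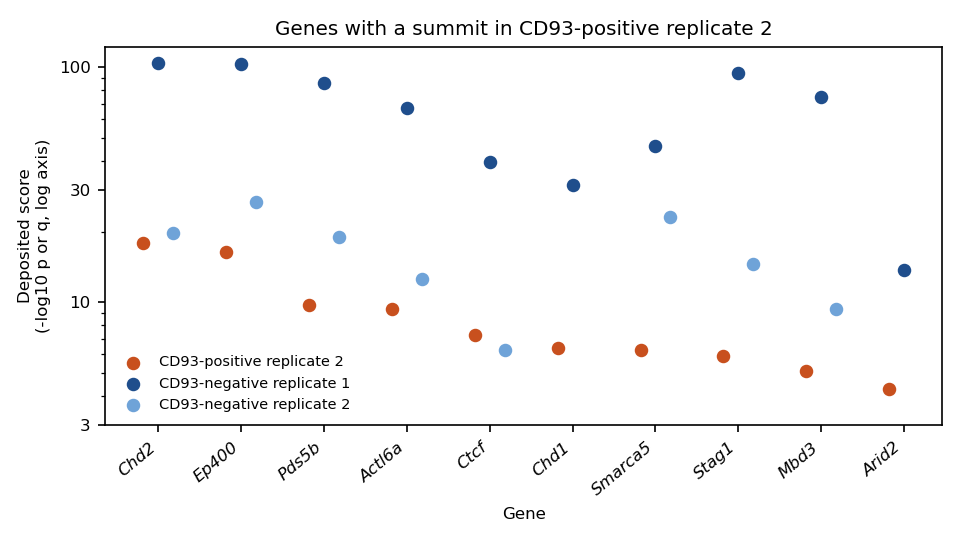
Deposited score, on a log axis, of the highest-scoring summit in the gene body or 10000 bp either side, for the 10 genes with such a summit in CD93-positive replicate 2. Points are single libraries, whose scores share no scale, and CD93-negative replicate 1 gives the highest point at each gene, up to 104 at Ep400 and Chd2.

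Promoter sequence is shown for the 6 of these 8 genes that have an entry in the RefSeq promoter table (GRCm38.p6, the assembly behind mm10). It is also shown for Stag1, a cohesin gene described below that was added after its values were seen. Each stretch holds the 200 bases before the start, 5′ to 3′ on the gene's strand. Capitals mark exact matches, on either strand, to the GC box GGGCGG, the CCAAT box CCAAT, the E2F motif TTTCCCGC or GCGCATGC, a part of the NRF1 motif. No matches in these stretches overlapped.
Ep400: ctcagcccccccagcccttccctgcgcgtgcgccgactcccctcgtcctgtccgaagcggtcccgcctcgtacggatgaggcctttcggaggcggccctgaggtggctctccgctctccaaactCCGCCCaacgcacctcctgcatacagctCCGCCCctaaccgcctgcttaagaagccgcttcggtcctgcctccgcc
Pds5b: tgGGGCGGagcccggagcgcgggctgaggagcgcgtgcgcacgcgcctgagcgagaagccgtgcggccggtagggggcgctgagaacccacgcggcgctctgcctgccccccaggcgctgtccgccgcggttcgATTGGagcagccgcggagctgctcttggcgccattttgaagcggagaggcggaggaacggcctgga
Actl6a: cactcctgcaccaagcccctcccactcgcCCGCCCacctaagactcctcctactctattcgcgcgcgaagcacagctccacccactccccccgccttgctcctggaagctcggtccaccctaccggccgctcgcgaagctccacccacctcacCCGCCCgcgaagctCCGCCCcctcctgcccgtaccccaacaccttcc
Ctcf: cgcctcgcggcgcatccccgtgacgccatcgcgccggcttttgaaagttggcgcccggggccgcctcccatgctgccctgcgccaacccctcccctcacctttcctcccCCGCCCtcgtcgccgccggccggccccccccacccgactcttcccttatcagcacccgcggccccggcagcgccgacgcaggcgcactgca
Smarca5: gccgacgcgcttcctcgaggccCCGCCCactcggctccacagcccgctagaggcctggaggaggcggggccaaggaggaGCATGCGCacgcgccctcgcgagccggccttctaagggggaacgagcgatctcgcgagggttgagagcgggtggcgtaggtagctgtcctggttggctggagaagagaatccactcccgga
Mbd3: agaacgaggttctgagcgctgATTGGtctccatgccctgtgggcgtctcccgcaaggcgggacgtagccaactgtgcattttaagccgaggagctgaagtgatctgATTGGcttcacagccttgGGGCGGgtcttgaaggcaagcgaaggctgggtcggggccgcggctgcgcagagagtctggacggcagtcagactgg
Stag1: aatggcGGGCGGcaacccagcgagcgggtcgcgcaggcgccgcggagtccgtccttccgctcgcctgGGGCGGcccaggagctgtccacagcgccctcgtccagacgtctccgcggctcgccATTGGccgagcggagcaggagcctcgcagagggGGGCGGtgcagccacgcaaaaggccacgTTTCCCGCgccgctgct
The coordinates are chr5:110770718-110770917 (minus strand) for Ep400, chr5:150673627-150673826 (plus strand) for Pds5b, chr3:32708346-32708545 (plus strand) for Actl6a, chr8:105636338-105636537 (plus strand) for Ctcf, chr8:80739460-80739659 (minus strand) for Smarca5, chr10:80399532-80399731 (minus strand) for Mbd3 and chr9:100643248-100643447 (plus strand) for Stag1. Ep400, Pds5b, Actl6a, Ctcf, Smarca5, Mbd3 and Stag1 all held at least 1 GC box in these 200 bases, and none held a TATA box.

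Summits at these genes lay close to the start and mostly upstream of it, as did most of those of all genes. Over all genes with an entry, 75.8%, 67.0% and 68.8% of gene-end summits lay upstream in CD93-positive replicate 2 and CD93-negative replicates 1 and 2. In the same libraries this was 83.3%, 83.3% and 81.2% for those of the 43 genes with an entry. Distances from the annotated start are negative when upstream. At Ep400 they were -135 bp in CD93-positive replicate 2, against -150 and -50 bp in CD93-negative replicates 1 and 2, and its GC boxes lay 76 to 71 and 48 to 43 bases before the start. At Pds5b they were -141 bp, against -173 and -148 bp in the same libraries. Both genes had all summits upstream. At Actl6a they were -100 bp in CD93-positive replicate 2, against -10 and 57 bp in CD93-negative replicates 1 and 2. At Ctcf they were -131 bp, against -181 and -132 bp in the same libraries. Only the Actl6a summit of CD93-negative replicate 2 lay downstream among these 4 genes. At Smarca5 they were 25 bp in CD93-positive replicate 2, against -88 and -149 bp in CD93-negative replicates 1 and 2. At Mbd3 they were -4 bp, against -137 and -82 bp in the same libraries. Most of these summits thus fall inside the stretches printed above, and those at Smarca5 in CD93-positive replicate 2 and at Actl6a in CD93-negative replicate 2 fall downstream of them. At Ctcf the summits of CD93-positive replicate 2 and CD93-negative replicate 2 were 1 bp apart, the closest pair.

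Where 2 libraries listed the same gene, their summits lay close together. The 8 genes shared by CD93-positive replicate 2 and CD93-negative replicate 1 had summits 15 to 140 bp apart (median 70.0). The 6 shared with CD93-negative replicate 2 were 1 to 174 bp apart (median 81.5), and the 17 shared by the CD93-negative libraries 4 to 154 bp apart (median 58.0). All lay within 250 bp, the distance taken here as shared. Only summits within 1000 bp of a gene end were compared, which itself favours small separations. Separations over all genes were not computed, so closeness is not shown to be particular to these genes. The median distance of the gene-end summit from the annotated start was 116 bp over 6 genes in CD93-positive replicate 2, against 129 bp over all genes with an entry. In CD93-negative replicates 1 and 2 it was 86.0 bp over 24 genes and 87.0 bp over 16 genes, against 76.0 and 121 bp over all genes.

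**Figure D3:**
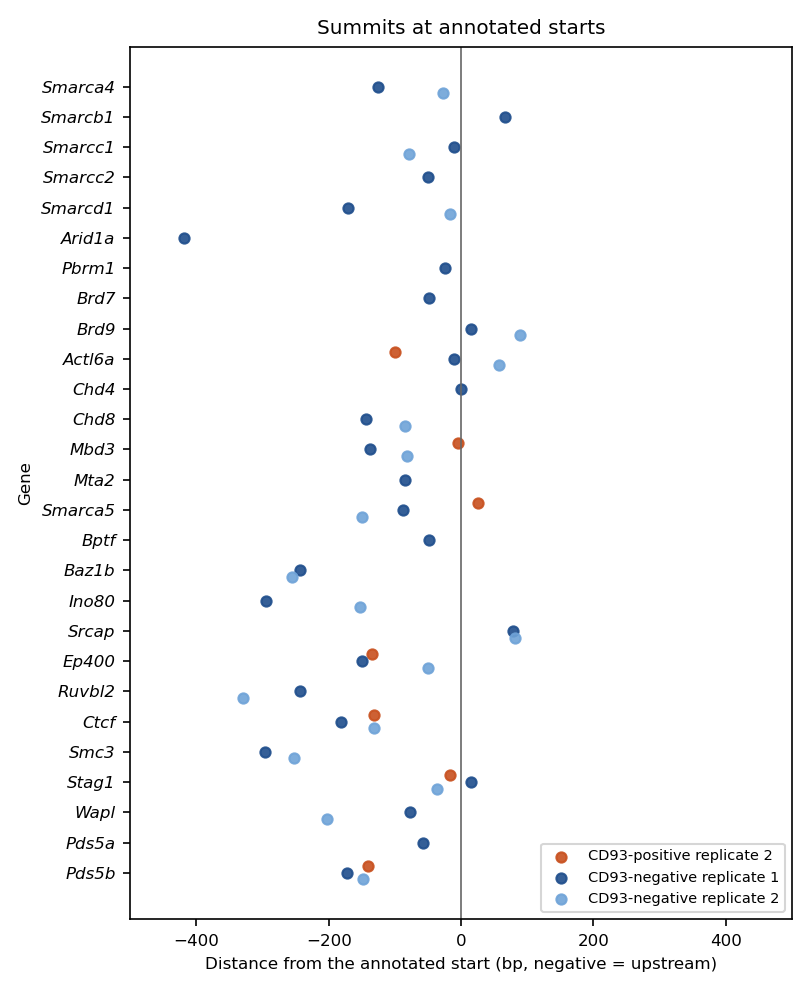
Distance in bp of the highest-scoring summit within 1000 bp of the annotated start, negative when upstream, for each gene with such a summit, coloured by the 3 libraries that listed any. All points lie within 500 bp of the start and most to its left, such as Ctcf at -131 bp in CD93-positive replicate 2 and -181 bp in CD93-negative replicate 1.

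Of the 16 SWI/SNF genes, 0 and 2 had a gene-end summit in CD93-positive replicates 1 and 2, against 12 and 6 in CD93-negative replicates 1 and 2. Over all protein-coding genes the shares were 0.0183% and 3.22%, against 32.2% and 12.9%, so the order of the groups was the same. Beside Actl6a, both CD93-negative libraries listed the ATPase gene Smarca4 with scores of 25.9 and 11.5, and the core scaffold gene Smarcc1 with 42.9 and 14.0. They also listed the core subunit genes Smarcd1 (17.1 and 4.35) and Smarcd2 (42.7 and 11.7), and Brd9, which marks the non-canonical form (42.6 and 9.73). The scores put Smarcc1 at 17.0% and 22.8% of the 2 lists, and Smarcd1 at 59.1% and 96.0%. CD93-negative replicate 1 alone listed the core genes Smarcb1 and Smarce1, the scaffold gene Smarcc2, and Pbrm1 and Brd7 of the PBRM1 form, with scores of 6.46 to 36.4. The alternative ATPase gene Smarca2 and Smarcd3, a subunit gene known for its part in heart and muscle, were listed in no library, with the nearest summit of CD93-negative replicate 1 at 651601 and 15152 bp.

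Several summits, most of them at SWI/SNF genes, lay near the end of another gene and could belong to either gene. In CD93-negative replicate 1, 6 of the 28 gene-end summits of the 43 genes also lay within 1000 bp of another protein-coding gene's end, namely those of Pbrm1 (with Gnl3), Brd9 (with Trip13), Smarcd1 (with Asic1), Smarcd2 (with Tcam1), Mta2 (with Eml3) and Arid2. In CD93-negative replicate 2 this held for 2 of 17, Brd9 and Smarcd2, and in CD93-positive replicate 2 for 1 of 8, Arid2. The same count over all genes was not made, so whether shared ends are more usual at these genes cannot be told. The Smarcd2 summits of CD93-negative replicates 1 and 2 lay at -5485 and -5445 bp from the 1 start that the promoter table annotates, just outside an end of the gene.

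Of the 10 CHD and NuRD genes, 0 and 2 were listed in CD93-positive replicates 1 and 2, against 6 and 3 in CD93-negative replicates 1 and 2. The shares of all protein-coding genes in these libraries were 0.0183% and 3.22%, against 32.2% and 12.9%. Both CD93-negative libraries listed Chd8, a remodeller that binds beta-catenin, with scores of 49.2 and 10.4, and Mbd2, a reader of methylated DNA in NuRD, with 46.2 and 11.0. Chd4, the main NuRD ATPase gene, and Mta2, a NuRD scaffold gene, were listed in CD93-negative replicate 1 with scores of 11.9 and 18.2, ranks in the weaker part of the list at 75.0% and 55.9%. For Chd3, Chd7, Mta1 and Chd2 no library listed a gene-end summit.

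Of the 4 ISWI genes, 0 and 1 were listed in CD93-positive replicates 1 and 2, against 3 and 2 in CD93-negative replicates 1 and 2. Baz1b, a partner of SNF2H, scored 45.7 and 15.5 in the CD93-negative libraries, and Bptf, the large subunit of the NURF complex, scored 21.8 in replicate 1. Baz1a, another partner of SNF2H, was listed in none. Of the 5 genes of the INO80, SRCAP and TIP60 complexes, 0 and 1 were listed in CD93-positive replicates 1 and 2, against 3 in each CD93-negative library. Beside both families, all protein-coding genes reached 0.0183% and 3.22% in the CD93-positive libraries, against 32.2% and 12.9% in the CD93-negative ones. The ATPase gene Ino80 scored 29.2 and 3.09 and the ATPase gene Srcap 36.6 and 11.0 in CD93-negative replicates 1 and 2. The Ino80 summit of replicate 2 was among the last of its list, at 99.9%.

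Of the 8 cohesin and CTCF genes, 0 and 2 were listed in CD93-positive replicates 1 and 2, against 4 and 3 in CD93-negative replicates 1 and 2. All protein-coding genes were listed at 0.0183% and 3.22%, against 32.2% and 12.9%, in the same libraries. Smc3, a core subunit of the cohesin ring, scored 47.3 and 20.8 in the CD93-negative libraries (13.8% and 4.97% of the lists) and was absent from both CD93-positive lists. Pds5a, the paralogue of Pds5b, scored 9.12 in CD93-negative replicate 1 and was listed in no other library. Rad21, Stag1, Nipbl and Wapl had no gene-end summit, although each had a summit inside the gene.

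**Figure D4:**
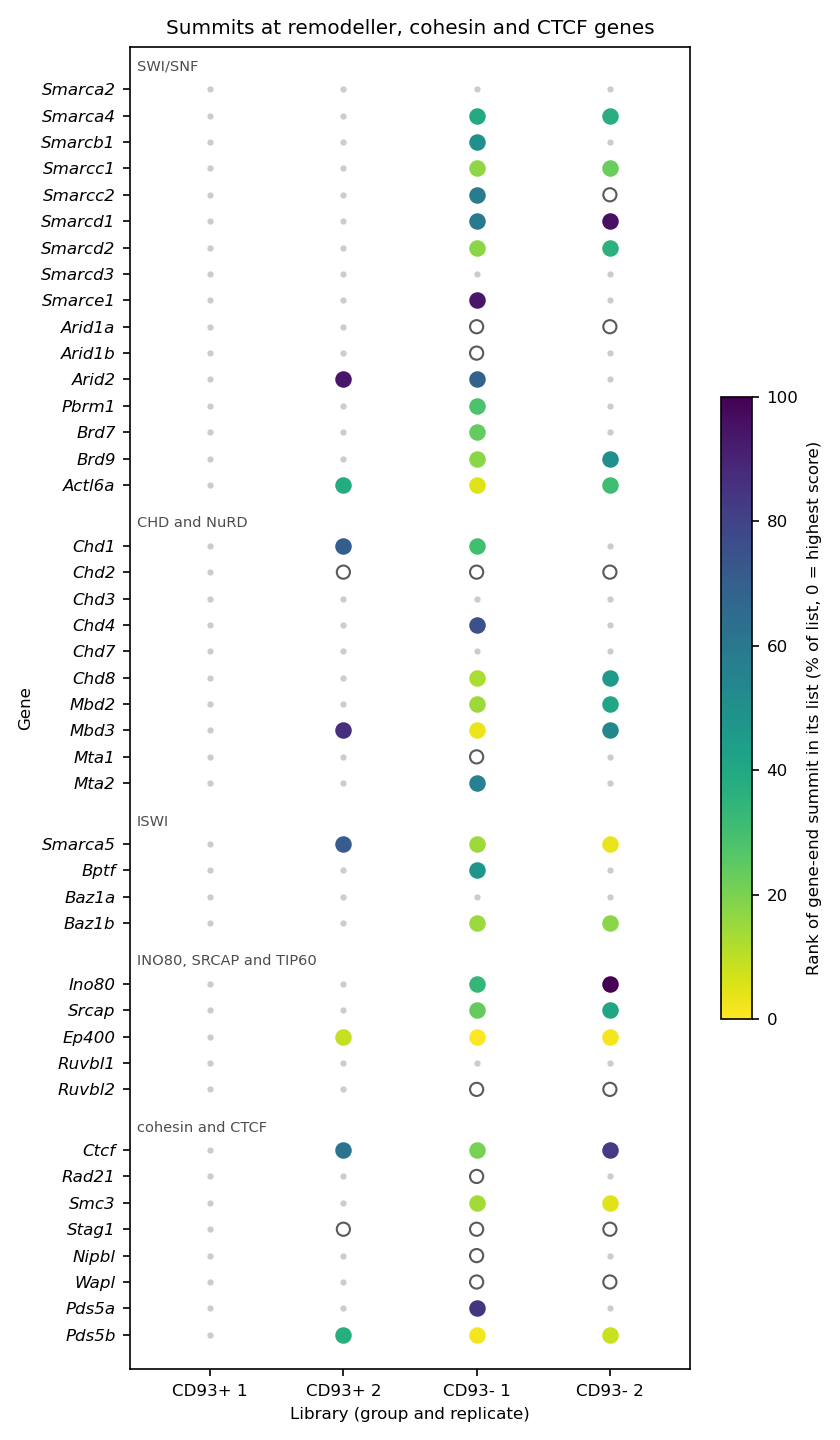
Summits of the 43 genes (rows, by family) in the 4 libraries (columns), as filled circles for a gene-end summit, coloured by its rank as a percentage of its list, open circles for only another summit in the gene body or 10000 bp either side, and small dots for none. Of the 43 genes, 8 are filled in CD93-positive replicate 2, against 28 and 17 in CD93-negative replicates 1 and 2, and Ep400 ranks highest in each.

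The strongest internal sites were at Chd2 and Stag1. In Chd2, a remodeller gene on chromosome 7 (73426652 to 73541746), a site lay 3793 to 3819 bp inside an end of the gene. It scored 17.8 in CD93-positive replicate 2 (rank 50 of 711), against 104 in CD93-negative replicate 1 (rank 51 of 7989) and 19.7 in CD93-negative replicate 2 (rank 182 of 2755). This was a higher rank than that of Ep400 in the first 2 of these lists. The 3 summits lay within 26 bp, at 73537953, 73537927 and 73537943. No start of Chd2 is in the promoter table, so the site cannot be placed against a start.

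In Stag1, which encodes the STAG subunit of cohesin (chromosome 9, 100597709 to 100958544), the site scored 5.90 in CD93-positive replicate 2 (rank 542), against 94.2 in CD93-negative replicate 1 (rank 80) and 14.6 in CD93-negative replicate 2 (rank 561). It lay over 45 kb from either gene end but at the annotated start, at -16, 15 and -36 bp in these 3 libraries. The sequence before that start is printed above and held 3 GC boxes. Wapl, the cohesin release factor, had summits at -77 and -202 bp from its annotated start in CD93-negative replicates 1 and 2 (scores 36.3 and 5.17). Ruvbl2, an AAA+ ATPase gene, had summits at -244 and -329 bp from its start in the same libraries (44.9 and 6.28), which also lay near the end of Gys1. Arid1a, the SWI/SNF gene often mutated in cancer, had a summit at -419 bp from an internal start in CD93-negative replicate 1 (20.03). These genes lay just outside the gene-end window, at 1347 to 2365 bp from an end for Wapl, Ruvbl2 and Arid1a, while the members just inside were Ino80 at 846 bp and Arid2 at 839 bp.

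Counting annotated starts in place of gene ends, for the 33 genes with an entry, gave 0 and 7 genes in CD93-positive replicates 1 and 2, against 27 and 18 in CD93-negative replicates 1 and 2. This was 0% and 21.2%, against 81.8% and 54.5%, while all genes with an entry reached 0.0172% and 3.6%, against 34.9% and 14.1%. This window was chosen after seeing the data, and the difference between the groups, -57.6 points, did not pass (exact permutation p = 0.333). Entries were missing for Smarce1, Arid2, Chd1, Chd2, Chd3, Chd7, Mbd2, Baz1a, Rad21 and Nipbl.

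In the gene body with 10000 bp on either side, 0 and 10 of 43 genes had a summit in CD93-positive replicates 1 and 2, against 37 and 23 in CD93-negative replicates 1 and 2. The share over all protein-coding genes was 0.0411% and 4.62%, against 43.5% and 18.5%. The mean share of the 43 genes was 11.6% ± 16.4 in CD93-positive and 69.8% ± 23.0 in CD93-negative HSCs (SD, n = 2 each), a difference of -58.1 points (exact permutation p = 0.333). With lists of at most 711 summits it was -4.65 points (exact permutation p = 1.0), and 6.98 points among the 3 libraries that have 711 (exact permutation p = 0.667). Beyond the gene-end genes, CD93-positive replicate 2 added Chd2 and Stag1. Of the genes listed through this window alone, the farthest summits outside the gene were at Arid1a, at 6355 and 6334 bp in CD93-negative replicates 1 and 2. The nearest one left out was at Mta2 in CD93-negative replicate 2, at 12333 bp. The genes with no summit even in this window were Smarca2, Smarcd3, Chd3, Chd7, Baz1a and Ruvbl1, an AAA+ ATPase gene.

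Part of the summits in this wide window were at neighbours. Of the 55 summits of CD93-negative replicate 1 in the windows of the 43 genes, 30 lay at the gene's own end and 4 at its own annotated start inside the gene. Of the rest, 12 lay at the end of another gene, such as Derl3 beside Smarcb1, Nop2 beside Chd4 and N4bp2l2 beside Pds5b, 6 inside the gene away from any end and 3 outside it. Summits in the windows of all genes were not sorted in this way. The single summit at Mta1 was at the end of Crip2. Summits inside the gene and away from any end were listed for Arid1b (3 summits, scores 7.94 to 30.4), Chd8 (18.3), Nipbl, the cohesin loader gene (9.06), and Chd2. The summit in Rad21, the gene of the cohesin ring's kleisin subunit, scored 45.3 in CD93-negative replicate 1 and lay 1707 bp from an end of Rad21, and within 1000 bp of an end of Gm52217. All 10 summits of CD93-positive replicate 2 lay at the gene's own end or inside the gene.

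By rank, the listed genes were not at the top of the CD93-positive list. The median gene-end score of the 8 genes in CD93-positive replicate 2 was 6.81, at 66.2% of the list, against 7.95 and 53.2% over its 704 genes. In CD93-negative replicate 1 the median over 28 genes was 36.5, at 23.8% of the list, against 23.9 and 43.1% over 7042 genes. In CD93-negative replicate 2 it was 11.5 over 17 genes, at 37.2%, against 10.1 and 47.8% over 2829 genes. The genes also listed in CD93-positive replicate 2 had a median score of 56.8 in CD93-negative replicate 1 (8 genes, 13.8 to 104.0), and those not listed there 31.0 (20 genes, 6.46 to 49.2). The ranges overlapped. These medians cover only genes with a summit.

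A further 71 genes of the same complexes were taken by name, also with earlier results of these data known. Of these, 0 and 5 had a gene-end summit in CD93-positive replicates 1 and 2, against 43 and 23 in CD93-negative replicates 1 and 2. This was 0% and 7.04% (2.33 to 15.7), against 60.6% (48.3 to 72.0) and 32.4% (21.8 to 44.5), with a difference of means of -43.0 points (exact permutation p = 0.333). The shares over all protein-coding genes were 0.0183% and 3.22%, against 32.2% and 12.9%, in the same order. The 5 in CD93-positive replicate 2 were Uchl5, a deubiquitinase of INO80 (score 14.7), the histone chaperone genes Rbbp4 (14.5) and Rbbp7 (6.74), Gatad2a of NuRD (6.87) and Meaf6 of TIP60 (4.34). In CD93-negative replicate 1 these 5 scored 53.5, 121, 32.1, 81.9 and 34.4 in that order. With lists of at most 711 summits, 5 of the 71 were listed in CD93-positive replicate 2, against 6 in each CD93-negative library, a difference of -1.41 points among these 3 libraries (exact permutation p = 0.333). In these 3 lists all protein-coding genes reached 3.22% in CD93-positive replicate 2, against 3.28% and 3.38% in CD93-negative replicates 1 and 2. The cohesin genes Smc1a and Stag2 were listed in CD93-negative replicate 1 with scores of 21.1 and 21.6, and neither in another library. Zfp143, a zinc-finger factor found with CTCF at loop anchors, scored 76.3 and 17.9 in CD93-negative replicates 1 and 2.

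The promoters of the 43 genes were rich in G, C and CpG. In the 200 bases before the start, the 36 promoters of the 33 genes with an entry had a median G and C content of 69.0%, against 56.5% over 21263 promoters of 17492 genes. The median ratio of observed to expected CpG was 0.982, against 0.547. For promoters of genes with a start summit in CD93-negative replicate 1 the medians were 69.0% and 0.953 over 30 promoters of the 43 genes, and 63.0% and 0.812 over 7774 promoters of all genes. Promoters of the 6 genes without such a summit had medians of 71.2% and 1.03 and ranged as low as 47.5% and 0.234.

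Short motifs were searched on both strands of these stretches. The GC box was found in 33 of 36 promoters (91.7%), against 40.8% of all promoters. Among promoters of genes with a start summit in CD93-negative replicate 1 it was found in 28 of 30 (93.3%), against 61.3%. The E2F motif TTTCCCGC was found in 4 (11.1%, against 1.02% of all), at Arid1a, Brd7, Smarcd1 and Stag1. Among promoters of genes with a start summit this was 4 of 30 (13.3%), against 1.72%. The NRF1 part GCGCATGC was found in 3 (8.33%, against 2.71%), at Smarca4, Smarca5 and Smarcc1. Among promoters of genes with a start summit this was 3 of 30 (10.0%), against 4.99%. The CCAAT box was found in 9 (25.0%, against 31.1%), the E-box CACGTG in 2 (5.56%, against 5.81%) and the ETS motif CCGGAAGT in 1 (2.78%, against 3.53%). Among promoters of genes with a start summit these were 26.7%, 6.67% and 3.33%, against 35.2%, 8.46% and 6.69%. The TATA box TATAAA, the cyclic-AMP response element TGACGTCA and the YY1 part AAGATGGC were found in none, against 9.38%, 1.85% and 1.15% of all promoters. Over all promoters of genes with a start summit these 3 reached 3.64%, 3.32% and 2.11%. A match is a description of the letters and not a binding site.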

How the data were processed

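Each library gave 1 list of ATAC-seq summits, and libraries were not pooled. The submitters' processing notes name Bowtie2, MACS2 and mm10. Tool versions, the Tn5 shift and any peak threshold were not given in the sources used here, and summit names carry only the words filtered and short. Scores were read as −log10 of the p or q of the deposited MACS2 peaks (which of them is not stated), set by the authors per library and not scaled between libraries. Depth per library is unknown, and list length limits what can be seen.

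Gene ends were read from RefSeq's GRCm38.p6 gene table, and starts, strands and sequences from its promoter table (250 bases before to 50 after each start). The highest-scoring summit within 1000 bp of either gene end, and any summit in the gene body or 10000 bp either side, were taken in each list. Groups and replicate numbers followed the sample titles (summit names carry partly other numbers), and groups were compared by exact permutation tests over libraries, two-sided. Python 3.11.15, numpy 2.4.6, pandas 2.3.3, scipy 1.17.1 and matplotlib 3.10.9 were used, and the window search was tested on simulated data. Alternatives were other windows, score minimums, list lengths, sharing distances, leaving out each library and a replicate block. The 43 genes, the other lists and the motifs were chosen with earlier results of these data known. Genes planned for description one by one were those listed in either CD93-positive library or in both CD93-negative libraries, by gene-end summits. Scores are also given, outside that rule, for some genes listed in CD93-negative replicate 1 alone. The same holds for genes with no gene-end summit, such as Chd2, Stag1, Wapl, Ruvbl2, Arid1a and Rad21.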

Additional observations from a re-analysis of the deposited data

How the results depend on the processing

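No group difference could pass in these designs, so only directions were compared. Among the 3 libraries with 711 summits, each held to that length (chosen after seeing the data), the direction turned for the 43 genes, to 6.98 points for gene ends and 6.98 for the gene-body window, and was -1.41 for the 71 other genes. In the other alternatives the gene-end difference of the 43 genes, -43.0 points, stayed negative, between -57.6 (annotated starts, chosen after seeing the data) and -2.33 points (lists of at most 711 summits, with the 21-summit list of CD93-positive replicate 1 averaged in at 0%). Leaving out each library gave -55.8 to -30.2 points for gene ends (exact permutation p = 0.333 to 0.667), -74.4 to -41.9 for the gene-body window and -57.0 to -28.9 for the 71 other genes. With lists of at most 711 summits and that short list kept, the other genes gave -4.93 points. With the titles' replicate number as a replicate block the differences were unchanged at -43.0, -58.1 and -43.0 points (exact paired sign-flip p = 0.5, the smallest that 2 pairs allow), and nothing shows that the numbers pair the libraries. Leaving out summits at another gene's end, also chosen after seeing the data, gave -34.9 points for gene ends and -45.3 for the gene-body window. The count in CD93-positive replicate 2 was 1 (Ep400) with a score of at least 10. That in CD93-negative replicate 1 was 18 in its 2755 highest-scoring summits, where all genes reached 12.9%, and 4 in its 711. That in CD93-negative replicate 2 was 6 in its 711. Within 100 bp, 5 of 8 genes shared a summit between CD93-positive replicate 2 and CD93-negative replicate 1. Other alternatives stayed within 1.5 times of the main counts. The cause of these moves was not tested.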
